A study of Mus musculus with 12 samples.

Results

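The livers of mice given Eleutheroside E (EE), a lignan glycoside of Eleutherococcus plants, were compared with those of mice given resmetirom, a drug that activates thyroid hormone receptor beta, across all genes with enough counts. The comparison holds 6 of the series' 12 livers, 3 in each arm, chosen by their treatment labels alone, and 13988 of the 28036 genes in the count table passed the low-count filter and were tested. All animals were C57BL/6J mice, an inbred strain, and their sex, age and diet composition are not stated in the labels. Every treated mouse carried the same background: a high-fat diet that had produced metabolic dysfunction-associated steatohepatitis (MASH, fatty liver with inflammation) for 8 weeks before dosing, followed by 4 weeks of oral treatment in a 12-week study. EE was given at 100 mg/kg and resmetirom at 3 mg/kg, so the arms differ in dose as well as in compound. The other 6 livers, used to estimate the spread between samples and to place the values, came from MASH mice and from normal-chow control mice, 3 each, both given the vehicle (0.5% CMC-Na). The labels give 1 library per replicate and do not state that each came from a separate animal, so p-values measure the spread between these samples. Libraries are named by group and replicate number, such as EE 1.

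Resmetirom acts through thyroid hormone receptor beta, the form of the receptor that predominates in hepatocytes. The receptor sits on DNA as a dimer with the retinoid X receptor and, once a ligand is bound, exchanges corepressors for coactivators at target genes such as Dio1, which encodes type 1 deiodinase, Thrsp (Spot14), Me1 (malic enzyme) and Hr (hairless). Thyroid hormone in liver is known for effects on cholesterol synthesis and clearance, bile acid synthesis, lipogenesis and fatty acid oxidation. No receptor target of EE is named in the labels.

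Library totals ran from 17297865 to 21793326 counts. Levels are CPM, which are counts divided by the library total with its trimmed-mean factor, and 1 CPM before that factor stood for 17.3 to 21.8 counts. Albumin (Alb), the main secreted protein of hepatocytes, stood at 69265, 71918 and 70138 CPM in EE and 38771, 49590 and 51508 CPM in resmetirom, so all 6 libraries carried the liver label's defining transcript. Several libraries stood apart. Transcripts of the mitochondrial genome made up 35.4% of control 1 against 2.40% to 4.38% elsewhere. Transcripts of the major urinary proteins (Mup) took 35.7% of resmetirom 2, against 8.90% and 16% in resmetirom 1 and 3 and 11.3% to 11.7% in the EE livers. Resmetirom 1 had the highest summed level of cell cycle genes, 423 CPM, where resmetirom 2 and 3 had 134 and 151 CPM and the EE livers 82.5 to 102 CPM. It also had the lowest sum of pericentral hepatocyte genes, 2176 CPM, where the other 5 livers had 8328 to 16020 CPM. The tissue was bulk liver, so fewer cells of a type and less RNA per cell cannot be told apart in any value here.

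In the edgeR quasi-likelihood fit, 43 of 13988 genes (0.307%) passed an adjusted p (Benjamini-Hochberg) of 0.05 between the arms, 21 higher in EE (0.15%) and 22 lower in EE (0.157%). All 43 had a log2 fold change of 1 or more in size, and in each of them the 3 EE livers and the 3 resmetirom livers did not overlap. Among all tested genes, such a separation was seen for 1217 with EE higher (8.7%) and 1271 with EE lower (9.09%). At an unadjusted p below 0.05 there were 1652 genes, where 699.4 would be expected from 13988 tests without any difference. The calls next to the threshold were Acpp (adjusted p = 0.0477) and Kcnk1 (0.0499) inside it and Crybg2 and Acsl1 (both 0.0528) outside it by edgeR. Log2 fold changes below are EE minus resmetirom with their SE, so a negative value is a lower level in EE. Of all 13988 tested genes, 8057 were negative and 5931 positive.

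**Figure D1:**
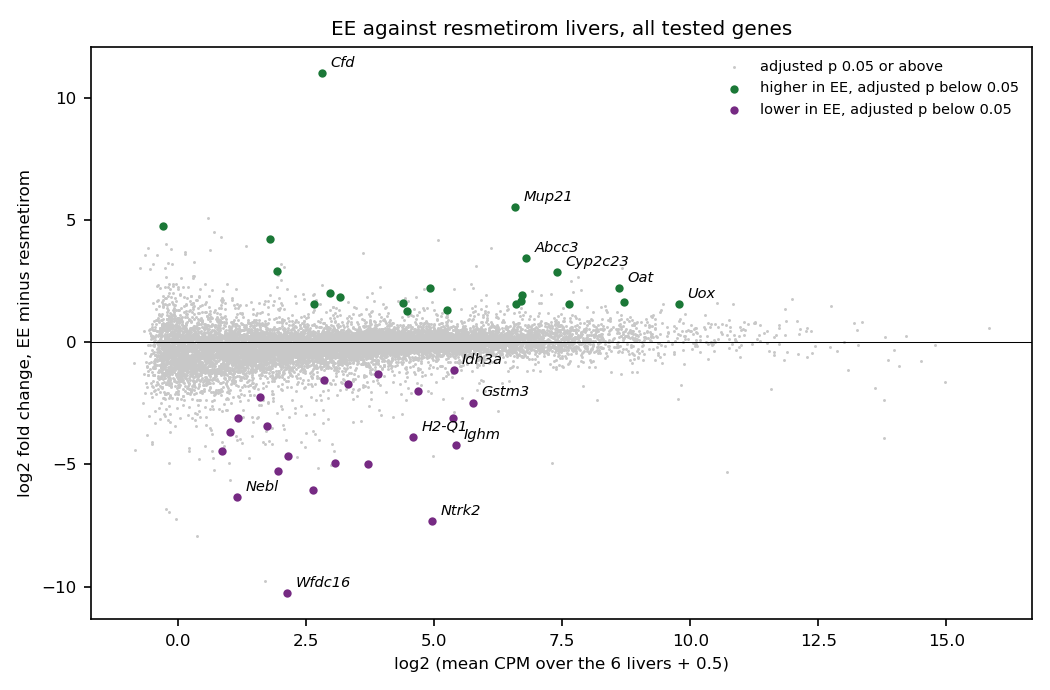
Each point is 1 of the 13988 tested genes, with the log2 mean level over the 6 livers in CPM (plus 0.5) on the horizontal axis and the fitted log2 fold change, EE minus resmetirom, on the vertical axis. Green points are the 21 genes higher in EE and purple points the 22 genes lower in EE at an edgeR adjusted p below 0.05 and run from Dnase1 at the low end of the level axis to Uox at the high end. The positions of Cfd and Wfdc16, which had 0 counts in a whole arm, depend on the prior count of the fit.

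The number of calls moved with the libraries in the fit. Of the 43 called genes, all 43 were called again without control 1, 21 without control 2 and 14 without control 3. Without MASH 1, 2 or 3 the numbers were 18, 18 and 19, and without EE 1, 2 or 3 they were 8, 7 and 7. Without resmetirom 1, 2 or 3 they were 26, 13 and 38. With both control 1 and resmetirom 2 left out, 193 genes of 14192 were higher in EE (1.36%) and 224 lower (1.58%), and these held 42 of the 43. With library totals alone, without the trimmed-mean factor, 12 passed, of which 25% were higher in EE where 48.8% of the 43 were. With only the 6 compared livers in the fit, 3 genes passed edgeR, and 1349 had an unadjusted p below 0.05. Every called gene that was tested kept its sign in every alternative. The 5 genes that passed in each of the 12 fits without 1 library were Ntrk2, H2-Q1, Mup21 and the unnamed models ENSMUSG00000121505 and ENSMUSG00000121494. Adjusted p-values given with the genes below as a range over single libraries left out come from those 12 fits.

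The MASH and control livers place the 43 genes. In 37 of them the 3 resmetirom livers lay outside the range of the 9 other livers, while this held for 4.75% of all tested genes. The 3 EE livers lay outside the range of the 9 others in 6 of the 43 (Gstm3, Klhdc7a, Mtmr11, Ntrk2, Rnf24 and Slc1a5), against 2.45% of all tested genes. Against the 3 MASH livers alone, resmetirom did not overlap in 41 of the 43, all but Gstm3 and Rnf24 (23.9% of all tested genes), and EE did not overlap in 15 of the 43 (32.3% of all tested genes). The 43 genes were chosen on the EE and resmetirom values, so the counts that use those livers describe the calls and are no separate test.

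**Figure D2:**
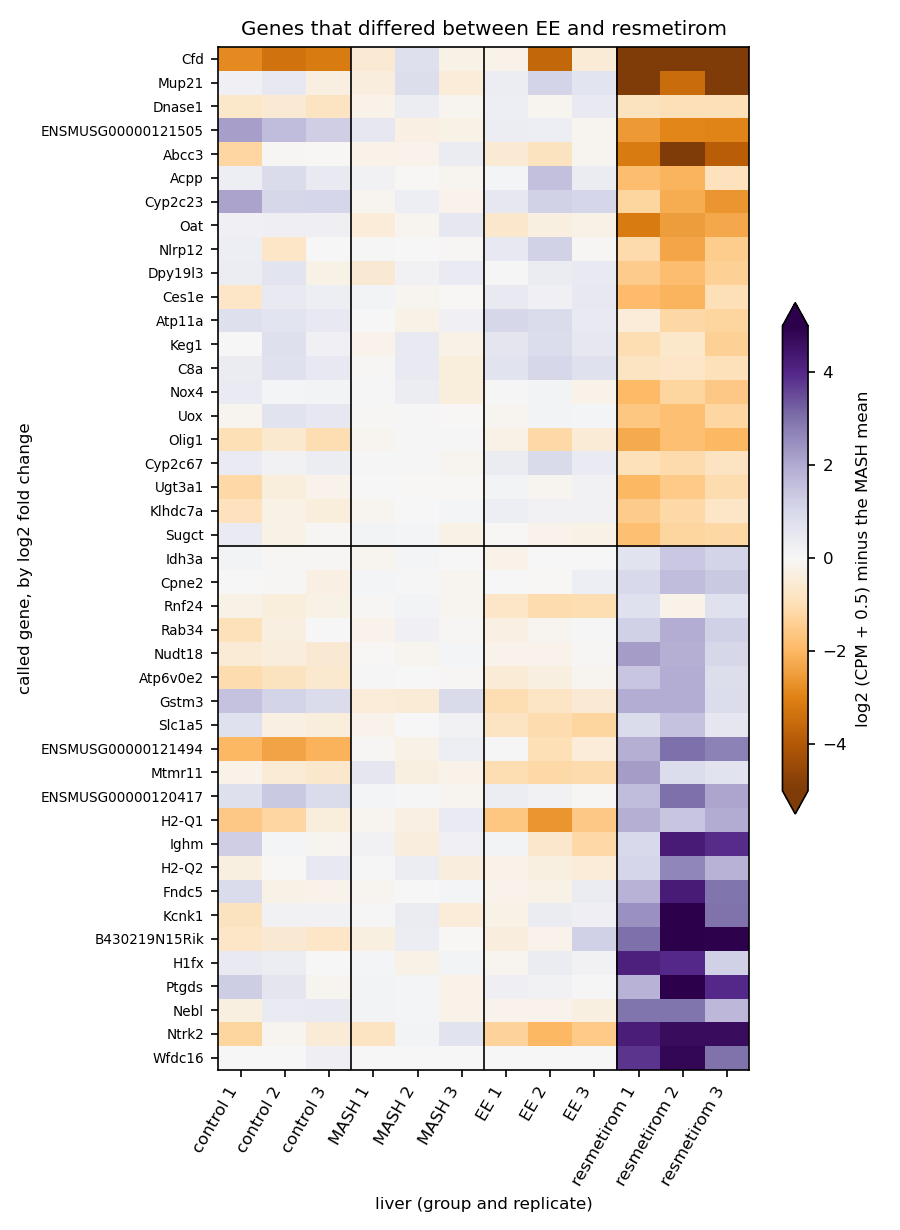
Rows are the 43 called genes in the order of their log2 fold change, and columns are the 12 livers by group and replicate. Colour shows log2 of the level in CPM (plus 0.5) minus the mean of the 3 MASH livers, from orange (lower than MASH) to purple (higher), cut at 5 in either direction. The 3 resmetirom columns are the most strongly coloured in most rows, and the EE columns are near the MASH mean in most rows, with Cfd in EE 2 and H2-Q1 and Ntrk2 in all 3 EE livers as visible exceptions.

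Ntrk2 (ENSMUSG00000055254) had the smallest p of all genes and encodes TrkB, the receptor tyrosine kinase for brain-derived neurotrophic factor. It measured 0.565, 0.163 and 0.404 CPM in the EE livers and 49.8, 66.5 and 66.7 CPM in the resmetirom livers. MASH livers had 0.993 to 3.75 CPM and controls 0.603 to 1.99 CPM, so the resmetirom livers stood above all others and the EE livers below all others. The difference was 158-fold (log2 fold change −7.31 ± 0.58, adjusted p = 0.000401 by edgeR), and the adjusted p stayed between 0.000156 and 0.00806 over the single libraries left out. Ntrk2 is also a member of the list of genes known to be higher in female mouse liver. The 250 bases before its annotated start (RefSeq, GRCm38.p6, chr13:58806319-58806568, plus strand) are printed here because it is the strongest of the calls.

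Ntrk2: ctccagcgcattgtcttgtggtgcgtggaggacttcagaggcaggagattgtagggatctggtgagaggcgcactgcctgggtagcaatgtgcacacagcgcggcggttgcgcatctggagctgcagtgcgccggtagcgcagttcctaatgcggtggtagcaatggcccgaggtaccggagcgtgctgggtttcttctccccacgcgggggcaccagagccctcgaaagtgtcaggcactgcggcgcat

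The core motif bound by thyroid hormone receptors, AGGTCA, was searched on either strand of these 250-base windows because resmetirom is a ligand of that receptor. It was found in 1116 of the 10197 tested genes that matched the promoter table by symbol (10.9%). Among the called genes it was found in 1 of 17 higher in EE with a window (5.88%), which is Sugct, and in 1 of 13 lower in EE (7.69%), which is Atp6v0e2, while the other 13 called genes had no window in the table. A direct repeat of the motif spaced by 4 bases, the arrangement the receptor is known to prefer, was in 0 of the 10197 windows. A match is only a description of these letters, and a window without one says nothing about the factor. Both windows with a match are printed with the motif in capitals. In Sugct (chr13:17694766-17695015, minus strand of GRCm38.p6, printed 5′ to 3′ along the gene) its first base lies 15 bases before the start, and in Atp6v0e2 (chr6:48537319-48537568, plus strand) it lies on the opposite strand, its match beginning 127 bases before the start.

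Sugct: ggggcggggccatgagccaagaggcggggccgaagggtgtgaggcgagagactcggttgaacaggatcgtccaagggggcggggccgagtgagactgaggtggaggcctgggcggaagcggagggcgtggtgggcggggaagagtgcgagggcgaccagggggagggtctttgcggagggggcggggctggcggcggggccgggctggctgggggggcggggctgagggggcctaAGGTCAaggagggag

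Atp6v0e2: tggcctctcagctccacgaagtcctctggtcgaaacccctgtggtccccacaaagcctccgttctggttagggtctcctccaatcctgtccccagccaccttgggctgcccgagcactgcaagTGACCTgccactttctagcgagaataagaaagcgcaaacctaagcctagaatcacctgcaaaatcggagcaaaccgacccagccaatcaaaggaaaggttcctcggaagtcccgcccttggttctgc

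Among the genes lower in EE, 2 transcripts of the major histocompatibility complex class I Q region passed. H2-Q1 (ENSMUSG00000079507) measured 3.64, 1.58 and 3.87 CPM in EE and 47.9, 34.5 and 50.2 CPM in resmetirom, with MASH at 9.99 to 16.6 CPM (log2 fold change −3.87 ± 0.41, adjusted p = 0.00296 by edgeR). It was called in every fit without 1 library (adjusted p 0.00187 to 0.026). H2-Q2 had 0.154, 0.109 and 0.0577 CPM in EE and 1.12, 4.27 and 2.15 CPM in resmetirom (−4.44 ± 0.81, adjusted p = 0.0463, edgeR). Its call was lost in 9 of the 12 fits without 1 library (adjusted p up to 0.213). The Q genes are close copies of one another, so how the authors' counting shared reads among them could set these values.

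Nudt18, a hydrolase that clears oxidised nucleotides, showed 9.70, 9.75 and 10.7 CPM in EE against 54.0, 42.8 and 23.4 CPM in resmetirom. The EE livers lay with MASH (10.4 to 11.9 CPM) and all resmetirom livers above them (−1.99 ± 0.26, adjusted p = 0.0161 by edgeR). The call was lost without EE 1, EE 2 or EE 3 (adjusted p 0.0886, 0.0861 and 0.0685). Gstm3, a glutathione S-transferase of drug and lipid peroxide conjugation, had 13.4, 16.5 and 19.6 CPM in EE and 111, 111 and 52.4 CPM in resmetirom (−2.47 ± 0.43, adjusted p = 0.0416 by edgeR). Its MASH values of 19.99 to 55.4 CPM and control values of 54.6 to 82.2 CPM reached into the resmetirom range, while the EE livers were the lowest of all 12. The Gstm3 call was lost in 9 of 12 fits without 1 library (adjusted p up to 0.205), and Gstm paralogs are close in sequence.

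Idh3a, the catalytic subunit of the citric acid cycle's NAD-dependent isocitrate dehydrogenase and a member of the thyroid hormone list, stood at 22.8, 27.2 and 26.8 CPM in EE and 43.0, 69.7 and 57.9 CPM in resmetirom. MASH (24.7 to 28.6 CPM) and control livers (25.6 to 29.1 CPM) had the EE level, and the 3 resmetirom livers were above all 9 others. At −1.15 ± 0.19 it had the smallest fold change of the calls (adjusted p = 0.0416 by edgeR), and 9 of the 12 fits without 1 library lost it (adjusted p up to 0.205). Slc1a5, the neutral amino acid and glutamine transporter ASCT2, measured 0.513, 0.327 and 0.231 CPM in EE against 2.77, 4.50 and 2.10 CPM in resmetirom (−3.09 ± 0.53, adjusted p = 0.0416 by edgeR, lost in 10 of 12 fits). Atp6v0e2, a subunit of the proton pump of lysosomes and other vesicles, had 0.719, 0.871 and 1.10 CPM against 4.08, 5.99 and 2.56 CPM (−2.22 ± 0.39, adjusted p = 0.0425 by edgeR, lost in 10 of 12).

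Several transcripts that were close to absent in EE were measurable in every resmetirom liver. Wfdc16, a member of the whey acidic protein family, had 0 counts in all 3 EE livers and in all 3 MASH livers, and 6.43, 13.4 and 3.43 CPM in resmetirom. Set against a floor of 3 counts over the EE group, which covers counting error only, it was at least 129.1-fold higher in resmetirom (adjusted p = 0.0283 by edgeR, lost in 5 of 12 fits without 1 library, up to 0.112). Nebl, which encodes the actin-binding protein nebulette, had 2 counts over the EE livers and 202 over the resmetirom livers (4.39, 4.35 and 1.54 CPM), a ratio of 94.7 with an exact 95% counting interval from 25.9 to 788. Its adjusted p was 0.0218 by edgeR and rose to at most 0.133 in the 4 fits without 1 library that lost it. Fndc5, the precursor of the secreted peptide irisin, read 0.205, 0.163 and 0.519 CPM in EE and 2.31, 14.9 and 5.54 CPM in resmetirom. Ptgds, a prostaglandin D synthase, read 0.205, 0.163 and 0.115 CPM against 1.58, 23.7 and 8.71 CPM. Kcnk1, a potassium leak channel, read 0.257, 0.653 and 0.577 CPM against 4.35, 35.2 and 6.51 CPM. For all 3 genes resmetirom 2 was the highest liver and resmetirom 1 the lowest of its arm. H1fx, a linker histone, was lowest in resmetirom 3, with 10.2, 8.69 and 0.871 CPM in resmetirom and 0.0513 to 0.272 CPM in EE. The adjusted p-values by edgeR were 0.0426 for Fndc5, 0.0463 for Ptgds, 0.0499 for Kcnk1 and 0.0473 for H1fx, and each call was lost in 9 or 10 of the 12 fits without 1 library, with adjusted p-values up to 0.237.

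Mtmr11, a myotubularin-related protein, had 0.513, 0.436 and 0.462 CPM in EE, below all 9 other livers, and 9.36, 3.30 and 2.82 CPM in resmetirom (−3.45 ± 0.54, adjusted p = 0.0292 by edgeR, lost in 4 of 12 fits, up to 0.171). The 6 further genes lower in EE fall outside the naming rule and were added after their values were seen. These are Rnf24 (a RING finger protein), Rab34 (a small GTPase of vesicle and cilium traffic), Cpne2 (a calcium-dependent membrane-binding copine), B430219N15Rik and the unnamed models ENSMUSG00000121494 and ENSMUSG00000120417. ENSMUSG00000121494 was called in every fit without 1 library, with 12.0, 5.55 and 8.25 CPM in EE and 44.6, 97.8 and 78.4 CPM in resmetirom (−3.09 ± 0.34, adjusted p = 0.00394 by edgeR). B430219N15Rik read 0.257, 0.381 and 1.73 CPM in EE and 7.55, 36.6 and 29.4 CPM in resmetirom (−4.96 ± 0.72, adjusted p = 0.0218 by edgeR, lost without EE 1, EE 2 or resmetirom 2 at 0.11, 0.125 and 0.0516). The annotation types it as antisense, and with the counting strand not stated its reads cannot be told apart from those of the gene on the other strand. Cpne2 (−1.29), Rnf24 (−1.53) and Rab34 (−1.72) had the smaller changes, and 9 or 10 of the 12 fits lost each.

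On the other side, Mup21 (ENSMUSG00000066153) had the largest rise in EE relative to resmetirom among genes with counts in both arms. The major urinary proteins are pheromone carriers secreted by the liver. Mup21 read 141, 243 and 176 CPM in EE and 1.58, 9.44 and 1.44 CPM in resmetirom (5.54 ± 0.74, adjusted p = 0.0162 by edgeR). EE livers lay with MASH (82.5 to 201 CPM) and controls (90.8 to 158 CPM), and the resmetirom livers were the 3 lowest of the 12. Its adjusted p ran from 0.00104 to 0.048 over the single libraries left out, so no single library ended the call. Mup genes are near copies of each other and may share reads, which was not tested. In resmetirom 2, where the family took the largest share of counts, Mup21 was below every EE liver. The family did not move as one. Mup3 read 6650, 6093 and 5956 CPM in EE against 511, 3575 and 1477 CPM in resmetirom. Mup9 went the other way, at 2025, 1112 and 2067 CPM against 3371, 60990 and 14476 CPM. C8a, which encodes the alpha chain of complement component 8, read 580, 734 and 581 CPM in EE against 204, 217 and 189 CPM in resmetirom, with MASH at 270 to 484 CPM between them (1.63 ± 0.25, adjusted p = 0.0241 by edgeR, lost in 5 of 12 fits, up to 0.122).

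Oat, ornithine aminotransferase, an amino acid catabolic enzyme of the hepatocytes around the central vein, measured 538, 675 and 715 CPM in EE and 94.6, 150 and 171 CPM in resmetirom. MASH had 619 to 1228 CPM and controls 970 to 1016 CPM, so the resmetirom livers were the lowest 3 and the difference was 4.64-fold (2.22 ± 0.31, adjusted p = 0.0185 by edgeR). The call was lost without EE 2 (adjusted p = 0.0847, edgeR) and without EE 3 (0.0766). Cyp2c23, a cytochrome P450 that makes epoxides of arachidonic acid, had 225, 341 and 323 CPM in EE and 63.1, 33.0 and 24.8 CPM in resmetirom (2.88 ± 0.41, adjusted p = 0.0204 by edgeR). The EE livers were above all MASH livers (135 to 189 CPM), and the call was lost without EE 2, EE 3 or resmetirom 2 (0.0847, 0.0766 and 0.0615). Uox, urate oxidase of the peroxisome, read 1155, 1397 and 1392 CPM against 418, 360 and 550 CPM (1.57 ± 0.27, adjusted p = 0.0416 by edgeR). Its level in EE was that of MASH (1250 to 1352 CPM), and 10 of the 12 fits without 1 library lost the call, with adjusted p-values up to 0.171.

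Abcc3 encodes MRP3, the transporter that exports conjugated bile acids and drugs into the blood. It stood at 199, 157 and 255 CPM in EE and 31.8, 4.50 and 19.4 CPM in resmetirom, a 10.9-fold difference (3.45 ± 0.58, adjusted p = 0.0416 by edgeR). MASH livers held 246 to 367 CPM and controls 120 to 281 CPM, all above the 3 resmetirom livers. The call was lost in 9 of the 12 fits without 1 library, with adjusted p-values up to 0.168. Ces1e, a carboxylesterase, read 173, 149 and 177 CPM against 33.7, 30.1 and 65.5 CPM (1.95 ± 0.34, adjusted p = 0.0426 by edgeR, lost in 10 of 12), and close Ces1 paralogs may share its reads. Keg1, a glycine N-acyltransferase-like protein, read 151, 181 and 145 CPM against 47.5, 61.7 and 37.0 CPM (1.70 ± 0.28, adjusted p = 0.0363 by edgeR, lost in 7 of 12). Nox4, an NADPH oxidase that makes hydrogen peroxide, read 32.2, 34.2 and 26.8 CPM against 7.90, 12.5 and 10.2 CPM (1.61 ± 0.23, adjusted p = 0.0218 by edgeR), and the call was lost without EE 1, EE 2 or EE 3 (0.0904, 0.11 and 0.0618). The EE and resmetirom values of these 4 genes were without overlap, and the EE livers overlapped MASH in Abcc3 and Nox4 and lay above all MASH livers in Ces1e and Keg1.

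Cfd, complement factor D or adipsin, is a serine protease of the alternative complement pathway made mostly by fat cells. It had 20.5, 1.47 and 17 CPM in EE and 0 counts in all 3 resmetirom livers, at least 256.2-fold higher in EE against a floor of 3 counts over the resmetirom group (adjusted p = 0.0292 by edgeR). MASH livers had 16.5 to 40.7 CPM and controls 1.90 to 2.91 CPM, so EE 2 lay below the controls and EE 1 and 3 in the MASH range. The call was lost in 6 of 12 fits without 1 library (adjusted p up to 0.108), among them EE 1 and EE 3 but not EE 2. Of the 6 adipocyte markers matched in the table, 4 were tested and 1, Cfd, passed, beside 0.15% of all tested genes called higher in EE. Retn, a defining marker, had 0 counts in all 6 livers. Fabp4, a fatty acid carrier of fat cells, overlapped with a negative value, at 3.85, 2.01 and 4.62 CPM in EE against 8.74, 4.35 and 2.00 CPM in resmetirom (−0.54 ± 0.46). Cidea, a droplet protein, overlapped too, at 1.18, 0 and 0.519 CPM against 0.347, 0 and 0.0513 CPM (1.83 ± 1.28). The summed level of the list was 1780, 1522 and 1852 CPM in EE and 302, 1440 and 625 CPM in resmetirom, nearly all of it Car3 (1755, 1518 and 1830 CPM against 293, 1435 and 623 CPM), a carbonic anhydrase that pericentral hepatocytes also express. The part of fat cells in the Cfd result was not tested.

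The other called genes higher in EE included enzymes and regulators. Atp11a, a phospholipid flippase, read 15.4, 14.3 and 10.3 CPM in EE against 5.32, 2.92 and 2.77 CPM in resmetirom (1.85 ± 0.28, adjusted p = 0.0241 by edgeR, lost in 4 of 12 fits). Dpy19l3, a C-mannosyltransferase, read 9.86, 12.5 and 13.2 CPM against 3.00, 2.25 and 3.38 CPM (2.03 ± 0.32, adjusted p = 0.0292, edgeR, lost in 6 of 12). Nlrp12, a regulator of inflammatory signalling, read 45.3, 70.3 and 30.7 CPM against 14.4, 5.99 and 11.2 CPM (2.20 ± 0.38, adjusted p = 0.0416 by edgeR, lost in 9 of 12). The remaining named genes were Olig1 (a basic helix-loop-helix transcription factor, 1.56) and Acpp (a prostatic acid phosphatase, 2.89), each lost in 10 of 12 fits with adjusted p-values up to 0.171 and 0.176. Outside the naming rule, and added after their values were seen, were Cyp2c67, Ugt3a1, Klhdc7a, Sugct, Dnase1 and the unnamed model ENSMUSG00000121505. Cyp2c67 read 253, 378 and 256 CPM against 102, 89.7 and 111 CPM (1.56 ± 0.21, adjusted p = 0.0164 by edgeR, lost only without EE 2 at 0.0697), and its Cyp2c paralogs may share reads with it. ENSMUSG00000121505 read 6.26, 6.15 and 4.44 CPM against 0.424, 0.225 and 0.205 CPM (4.21 ± 0.43, adjusted p = 0.00296 by edgeR). Ugt3a1, a glycosyltransferase (1.55), Sugct, a glutarate CoA-transferase (1.29), and Klhdc7a (1.32) were lost in 10 of 12 fits each. Dnase1 had 34 counts over the EE livers and 1 over the resmetirom livers, a ratio of 36.2 with an exact 95% counting interval from 6.08 to 1470 (adjusted p = 0.0463 by edgeR, lost in 11 of 12).

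**Figure D3:**
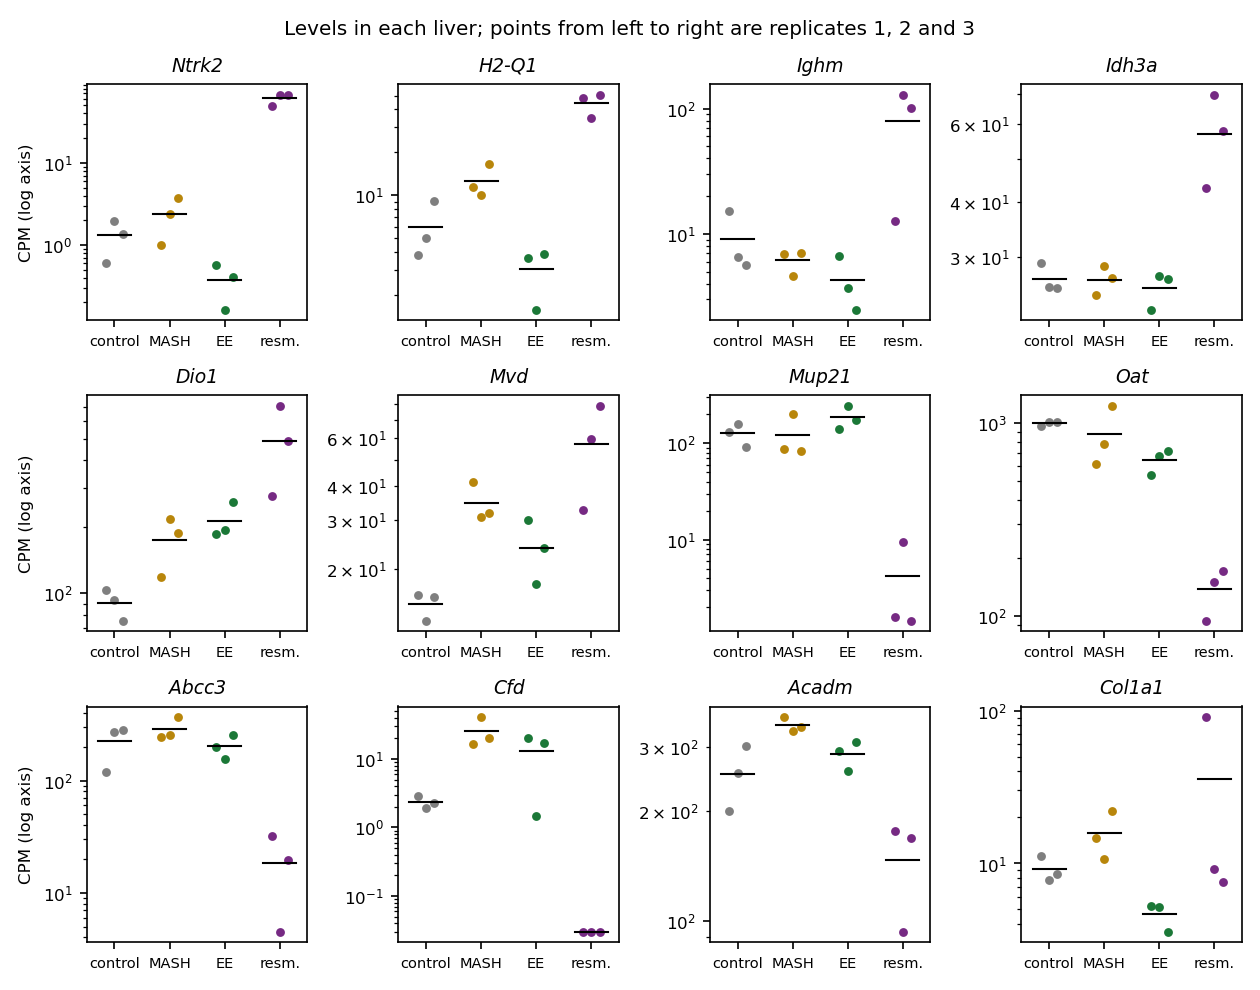
Each panel shows 1 gene, with the level in CPM on a logarithmic axis whose range differs between panels. Points are the 3 livers of each of the 4 groups (resm. is resmetirom) and bars are group means, and the 0 values of Cfd in resmetirom are drawn at 0.03. Ntrk2, H2-Q1, Ighm and Idh3a have all 3 resmetirom livers above all EE livers, Mup21, Oat, Abcc3 and Cfd have them below, and Dio1, Mvd, Acadm and Col1a1 are separated too but did not pass the adjusted p.

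The thyroid hormone list, which holds the receptor genes, hormone transporters, deiodinase and classical targets, covers the pathway of resmetirom's receptor. All 17 members were tested: 0 were higher in EE (0.15% of all tested genes), 1 (Idh3a) lower in EE (0.157%) and 16 did not pass. Of the 17, 5 had all EE livers below all resmetirom livers (9.09% of all tested genes), and 2 had them all above (8.7%). Dio1 read 185, 194 and 259 CPM in EE and 275, 702 and 491 CPM in resmetirom (−1.20 ± 0.34, adjusted p = 0.171 by edgeR). Hr, a corepressor, read 1.03, 0.272 and 0.173 CPM against 11.2, 4.50 and 1.33 CPM (−3.51 ± 0.80, adjusted p = 0.101 by edgeR). Me1, at 228, 88.1 and 241 CPM against 293, 289 and 557 CPM, and Bcl3, at 24.0, 26.4 and 18 CPM against 35.7, 73.5 and 26.4 CPM, were separated without passing (adjusted p = 0.473 and 0.26 by edgeR). Thrsp did not separate the arms, with 186, 256 and 465 CPM in EE and 29.7, 500.0 and 376 CPM in resmetirom (log2 fold change 0.00 ± 0.74), and its sign turned with the scaling. Klf9, a hormone-induced transcription factor, overlapped as well (60.7, 57.4 and 47.8 CPM against 81.0, 82.4 and 47.9 CPM, −0.35 ± 0.38). The median of the list was 0.00, its sign changed with the scaling, and it was −0.23 without resmetirom 1, beside −0.08 over all tested genes.

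Cholesterol synthesis genes, which encode the mevalonate and sterol enzymes, showed 0 of 24 members called higher and 0 called lower in EE. Of the 24, 23 had a negative log2 fold change (8057 of all 13988 tested genes). In 11, every EE liver was below every resmetirom liver (9.09% of all tested genes). The median of −0.75 kept its sign under every scaling and with each EE or resmetirom liver left out (−0.96 to −0.44 over the resmetirom livers). Mvd, mevalonate diphosphate decarboxylase, read 30.1, 17.5 and 23.8 CPM in EE and 32.7, 59.5 and 78.4 CPM in resmetirom (−1.25 ± 0.30, adjusted p = 0.12 by edgeR). Lss, lanosterol synthase, read 60.5, 65.5 and 68.3 CPM against 102, 108 and 179 CPM (−1.0 ± 0.27, adjusted p = 0.155 by edgeR). Mvk, mevalonate kinase, at 28.8, 35.1 and 33.4 CPM against 39.1, 71.9 and 74.4 CPM, and Dhcr7, the last reductase of the pathway, at 104, 121 and 131 CPM against 143, 259 and 274 CPM, were separated alike. Without control 1 and resmetirom 2, 5 of the 24 were called lower in EE, beside 1.58% of all genes tested in that fit.

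Fatty acid oxidation and ketogenesis had mostly positive values, again with 0 of 28 members called. Of the 28, 24 had a positive log2 fold change (5931 of all 13988 tested genes). In 16, every EE liver was above every resmetirom liver (8.7% of all tested genes). The median was 0.51 (0.41 to 0.64 with each resmetirom liver left out). Acadm, medium-chain acyl-CoA dehydrogenase, read 294, 258 and 311 CPM in EE and 177, 93.2 and 169 CPM in resmetirom, where MASH had 333 to 363 CPM (0.97 ± 0.26, adjusted p = 0.151 by edgeR). Vnn1, a pantetheinase, and Cyp4a10, a fatty acid hydroxylase, are known targets of PPAR alpha, and they measured 96.4, 63.3 and 105 CPM against 22, 3.52 and 30.7 CPM and 462, 227 and 465 CPM against 126, 9.59 and 47.0 CPM. In both, resmetirom 2 was the lowest liver. Fgf21, a fasting hormone of the liver, ran the other way without separating, at 7.29, 0.599 and 2.83 CPM in EE and 44.3, 6.07 and 15.3 CPM in resmetirom. Without control 1 and resmetirom 2, 4 of the 28 were called higher in EE, beside 1.36% of all genes tested in that fit.

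In the other lipid lists no member was called by edgeR. Fatty acid synthesis (18 members) had a median of −0.15 that became 0.23 without resmetirom 3. There, Scd2, a stearoyl-CoA desaturase, read 2.26, 3.21 and 3.41 CPM in EE against 21.7, 3.45 and 8.61 CPM in resmetirom, Pklr, liver pyruvate kinase, 272, 221 and 347 CPM against 54.3, 131 and 206 CPM, and the lipogenic regulator Srebf1 206, 203 and 254 CPM against 97.5, 79.3 and 243 CPM. The lipid droplet and uptake list (24 members) had a median of 0.21, with 6 members separated higher in EE (8.7% of all tested genes). Plin4, a droplet coat protein, read 7.96, 2.18 and 3.98 CPM against 1.81, 0.974 and 0.871 CPM, and Fitm1, which promotes droplet formation, 39.0, 26.9 and 51.0 CPM against 7.16, 21.1 and 16.8 CPM. Cd36, the fatty acid translocase, overlapped, at 45.7, 16.7 and 44.4 CPM against 69.9, 9.29 and 21.5 CPM, as did the droplet fusion protein gene Cidec at 3.85, 2.18 and 7.45 CPM against 12.1, 0.899 and 1.49 CPM. All 6 Cd36 values were below the 98.2 to 139 CPM of the MASH livers. The lipoprotein list (22 members) had a median of 0.06 that was −0.03 without resmetirom 1, and Apoa4, an apolipoprotein of triglyceride-rich particles, read 578, 196 and 472 CPM in EE against 2029, 540 and 1583 CPM in resmetirom with overlap.

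In the bile acid list, Abcc3 was the 1 call of 20 members, beside 0.15% of all tested genes called higher in EE, and 19 did not pass. Slco1b2, a hepatocyte uptake transporter, read 605, 521 and 523 CPM in EE and 174, 213 and 378 CPM in resmetirom (1.11 ± 0.39, adjusted p = 0.285 by edgeR). Cyp7a1, the rate-limiting enzyme of bile acid synthesis, overlapped, at 25.9, 82.9 and 74.0 CPM against 132, 56.9 and 177 CPM (−1.0 ± 0.79). The median of the list was 0.20, and −0.07 without resmetirom 1. Oat was the 1 call among 29 amino acid and urea cycle genes and among the 16 tested pericentral genes. Over all tested genes, 0.15% were called higher in EE. Tdo2, the first enzyme of tryptophan breakdown, read 938, 918 and 999 CPM against 337, 301 and 570 CPM, while the serine synthesis genes Psat1 (0.616, 0.653 and 1.10 CPM against 13.8, 2.47 and 1.28 CPM) and Phgdh (0.103, 0.272 and 0.115 CPM against 2.77, 1.95 and 0.513 CPM) lay lower in every EE liver, and none of the 3 passed (adjusted p = 0.288, 0.155 and 0.155 by edgeR). The gluconeogenesis and insulin list had 0 of 17 called and a median of 0.50, and Irs2, an insulin receptor substrate, read 11.5, 15.1 and 14.1 CPM against 19.0, 23.7 and 22 CPM.

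Drug metabolism genes split in direction. Of 34 tested members, 0 were called higher and 1 lower in EE (Gstm3), beside 0.15% and 0.157% of all tested genes. Of the 34, 11 were separated higher in EE (8.7% of all tested genes) and 5 lower (9.09%), and the median was 0.39. Ces1f, a carboxylesterase, read 377, 350 and 503 CPM in EE and 29.8, 10.8 and 91.1 CPM in resmetirom (3.22 ± 0.61, adjusted p = 0.0555 by edgeR), with the same limit from Ces1 paralogs. Cyp2c29, a cytochrome P450 known to respond to the nuclear receptor CAR, read 794, 572 and 815 CPM against 41.2, 72.7 and 155 CPM (3.02 ± 0.78, adjusted p = 0.136 by edgeR). Gsta4, which conjugates the lipid peroxidation product 4-hydroxynonenal, stood the other way with 36.3, 21.0 and 34.4 CPM against 64.8, 135 and 68.1 CPM (−1.54 ± 0.31, adjusted p = 0.0752 by edgeR). Among 15 tested NRF2 targets Gstm3 was again the 1 call, beside 0.157% of all tested genes called lower in EE. Osgin1, an oxidative stress gene, read 133, 107 and 80.8 CPM against 274, 639 and 199 CPM. The NRF2 median was −0.54, and −0.02 without resmetirom 1. The pericentral genes Cyp2e1, at 8460, 10975 and 11141 CPM against 956, 4898 and 4974 CPM, and Cyp2c37, at 227, 215 and 199.9 CPM against 9.09, 68.8 and 90.9 CPM, were lowest of all 12 livers in resmetirom 1 (adjusted p = 0.285 for each by edgeR). The pericentral median was 0.33 and 0.04 without that liver.

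Genes with a sex bias in liver, which in mice follow the pattern of growth hormone pulses, held 3 of the calls. Of 23 tested male-biased genes, 2 were higher in EE (Mup21 and C8a), beside 0.15% of all tested genes, 0 were lower and 21 did not pass. Of the 23, 11 were separated higher in EE (8.7% of all tested genes). The median was 0.88 (0.62 to 1.68 with each resmetirom liver left out). The summed level of the list overlapped, at 61920, 87170 and 72300 CPM in EE against 16250, 158400 and 35180 CPM in resmetirom. Cyp4a12a and Cyp4a12b, fatty acid hydroxylases of male liver, read 323, 322 and 386 CPM against 14.8, 156 and 11.2 CPM and 81.4, 112 and 107 CPM against 6.78, 26.7 and 1.69 CPM (adjusted p = 0.274 and 0.144 by edgeR). In both, resmetirom 2 was the highest resmetirom liver, as it was for the Mup share. Of 20 female-biased genes only 9 were tested. Of these, 1 (Ntrk2) was lower in EE, beside 0.157% of all tested genes, and 8 did not pass. In sign, 6 of the 9 were negative and 3 positive, with a median of −2.02 that was −1.17 without resmetirom 1. The summed level of all 20 overlapped, at 262, 84.7 and 376 CPM in EE against 351, 205 and 351 CPM in resmetirom. Cyp17a1, a steroid hydroxylase of that list, read 20.9, 11.1 and 25.1 CPM against 68.3, 129 and 201 CPM (−2.80 ± 0.65, adjusted p = 0.108 by edgeR). In the growth hormone list (13 members, 0 called), Stat5a, a transducer of the hormone's signal, read 14.9, 7.30 and 12.8 CPM against 23.7, 27.9 and 29.8 CPM, the binding protein gene Igfbp2 242, 356 and 304 CPM against 723, 929 and 449 CPM, and the receptor gene Ghr 304, 290 and 282 CPM against 113, 208 and 191 CPM. These 3 were separated between the arms, with adjusted p-values of 0.0768, 0.134 and 0.237 by edgeR.

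Acute phase proteins, secreted by hepatocytes in inflammation, had 0 of 20 called, 9 separated higher in EE (8.7% of all tested genes) and 0 lower (9.09%), and a median of 0.73 (0.58 to 0.77 with each resmetirom liver left out). Itih3, an inter-alpha-trypsin inhibitor chain, read 833, 935 and 785 CPM in EE and 420, 281 and 465 CPM in resmetirom (1.13 ± 0.25, adjusted p = 0.0985 by edgeR). Apcs, serum amyloid P, at 78.5, 73.2 and 47.5 CPM against 34.8, 33.6 and 35.9 CPM, and Orm1, orosomucoid, at 495, 525 and 416 CPM against 119, 309 and 81.9 CPM, were separated in the same direction. The heat shock (15 members), circadian clock (21) and glucocorticoid-induced (16) lists had 0 calls and medians of 0.53, 0.56 and 0.58, with 5, 3 and 4 members separated higher in EE (8.7% of all tested genes) and 0 lower. Among them Bhlhe41, a clock repressor, read 2.00, 3.38 and 1.85 CPM against 0.385, 0.375 and 0.615 CPM, Per2, a period protein, 11.7, 12.7 and 21.6 CPM against 3.08, 4.05 and 10.4 CPM, and Fkbp5, a glucocorticoid-induced chaperone, 25.4, 74.4 and 39.0 CPM against 18.8, 5.09 and 20.7 CPM. Glcci1, also glucocorticoid-induced, read 1.49, 2.01 and 1.5 CPM against 0.616, 1.05 and 0.564 CPM, and its MASH livers were lower than either arm, at 0.0781 to 0.125 CPM. The labels give no time of day for the collection.

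**Figure D4:**
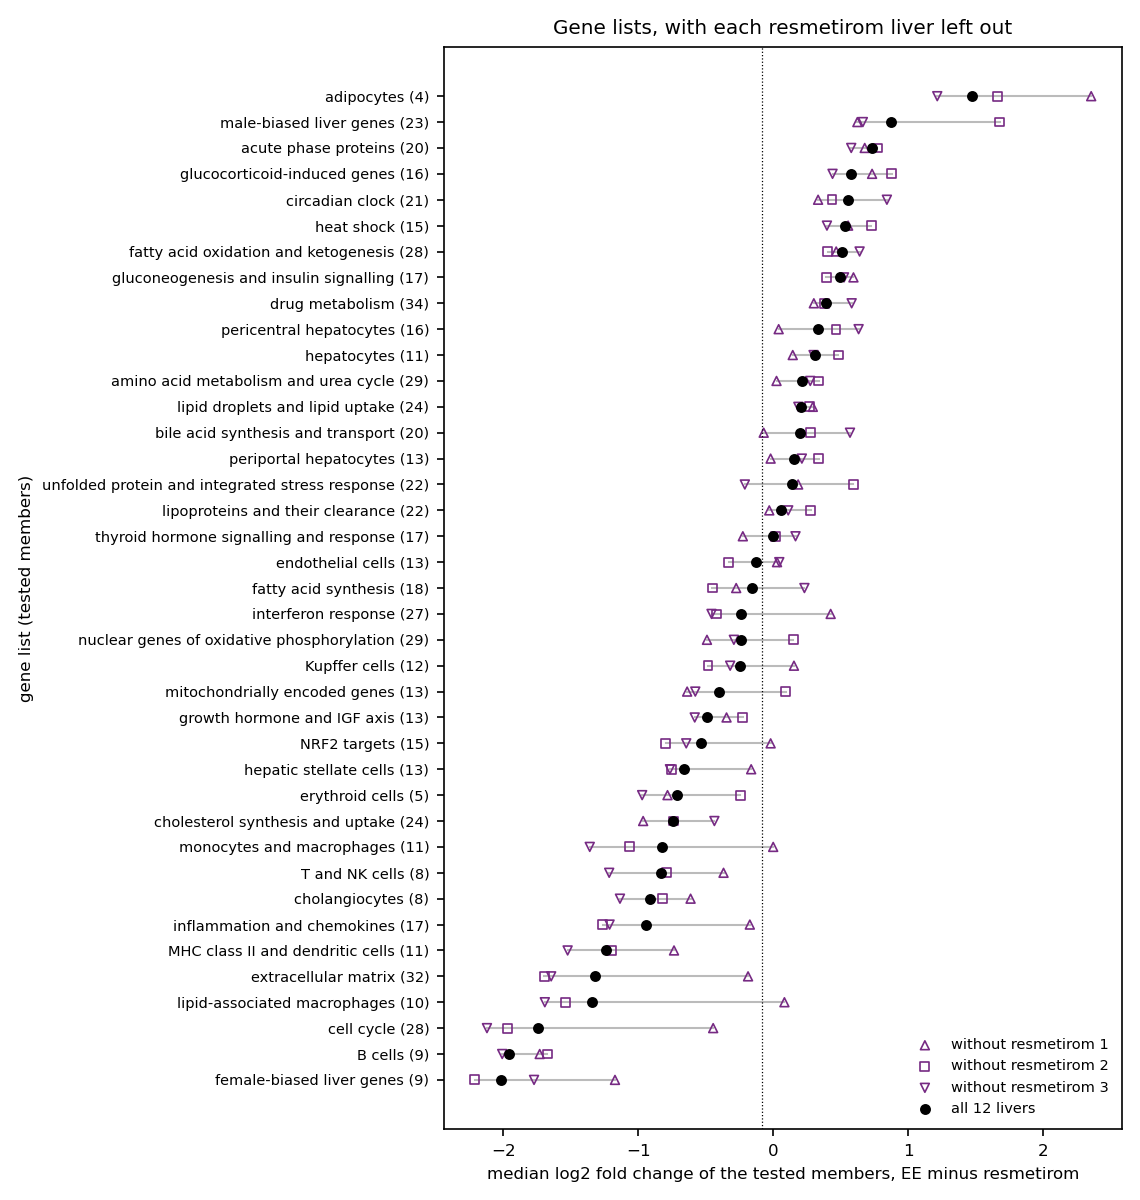
Rows are the 39 gene lists with their number of tested members, and the horizontal axis is the median log2 fold change of those members, EE minus resmetirom. Filled points are the fit of all 12 livers, open symbols the fits without 1 resmetirom liver, and the dotted line is the median of all tested genes, −0.08. Extracellular matrix, cell cycle and macrophage lists move toward 0 without resmetirom 1, while cholesterol synthesis, fatty acid oxidation, acute phase and B cell lists keep their side of it in all 4 fits.

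Lists of matrix, proliferation and immune cells had mostly negative log2 fold changes, where 8057 of all 13988 tested genes were negative. Many of their medians shrank when resmetirom 1 was left out. Extracellular matrix had 0 of 32 tested members called, 30 negative and 11 separated lower in EE (9.09% of all tested genes), with a median of −1.32 that was −0.19 without resmetirom 1. Col1a1, the main fibrillar collagen chain, read 5.24, 5.23 and 3.58 CPM in EE and 90.4, 9.14 and 7.54 CPM in resmetirom, with MASH at 10.7 to 22.1 CPM (−2.93 ± 0.79, adjusted p = 0.155 by edgeR). Loxl1, a collagen cross-linking oxidase, read 1.18, 1.03 and 0.577 CPM against 11.6, 4.05 and 2.97 CPM (−2.74 ± 0.60, adjusted p = 0.0932), and Col6a2 3.64, 5.01 and 2.94 CPM against 30.2, 6.52 and 6.92 CPM. In all 3 the EE livers lay below every resmetirom liver. Stellate cells, the matrix-producing cells of the liver, had 0 of 13 called and 13 of 13 negative, with a median of −0.66 (−0.16 without resmetirom 1), and their receptor gene Pdgfrb read 5.75, 6.42 and 3.69 CPM against 20.6, 8.77 and 10.7 CPM.

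Cell cycle genes had 0 of 28 tested members called and 12 separated lower in EE (9.09% of all tested genes), with a median of −1.75 that was −0.45 without resmetirom 1. Ccnd1, cyclin D1, read 16.7, 31.8 and 28.3 CPM in EE and 187, 37.7 and 77.5 CPM in resmetirom (−1.98 ± 0.48, adjusted p = 0.124 by edgeR). Ccnb2, a mitotic cyclin, read 0.154, 0.272 and 0.462 CPM against 12.7, 1.65 and 0.82 CPM, and the proliferation marker Mki67 0.359, 0.926 and 0.289 CPM against 11.5, 0.899 and 0.769 CPM. Resmetirom 1 was the highest of the 12 livers in each of these 3 genes, and in Mki67 the other 2 resmetirom livers fell within the EE range. Inflammation genes had 0 of 17 called and a median of −0.94 (−0.17 without resmetirom 1), with the chemokine Cxcl14 at 2.10, 2.40 and 1.27 CPM against 31.6, 21.8 and 1.64 CPM and the adhesion molecule Icam1 at 6.72, 7.84 and 8.2 CPM against 29.9, 16.3 and 8.77 CPM. Cxcl1, another chemokine of that list, lay the other way, at 2.87, 12.8 and 2.37 CPM in EE against 1.16, 1.12 and 0.82 CPM in resmetirom (2.53 ± 0.82, adjusted p = 0.246 by edgeR). Lipid-associated macrophage genes (10 members, 0 called) had a median of −1.34 that turned to 0.08 without resmetirom 1. There, Gpnmb read 0.565, 0.490 and 0.289 CPM against 43.0, 0 and 0.564 CPM, and the tetraspanin Cd63 3.13, 5.01 and 3.52 CPM against 29.2, 13.3 and 5.95 CPM. Kupffer cell, monocyte and interferon lists had no calls, and their medians of −0.25, −0.82 and −0.24 became 0.15, −0.00 and 0.43 without resmetirom 1.

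Among the immune marker lists, the B cell list held a call. Of 9 tested members 1 was lower in EE (Ighm), beside 0.157% of all tested genes, 0 were higher and 8 did not pass. Of the 9, 8 had every EE liver below every resmetirom liver (9.09% of all tested genes). Ighm, the constant region of IgM, read 6.67, 3.70 and 2.48 CPM in EE and 12.6, 128 and 101 CPM in resmetirom, with MASH at 4.64 to 7.07 CPM (−4.22 ± 0.74, adjusted p = 0.0426 by edgeR). Control 1 reached 15.2 CPM, above resmetirom 1. The call was lost in 9 of 12 fits without 1 library (adjusted p up to 0.213), but not without resmetirom 1, where it was 0.00481. Igkc, the kappa light chain, read 5.59, 4.30 and 3.52 CPM against 22.3, 22.2 and 7.79 CPM. Control 1 had 28.7 CPM of Igkc, above every resmetirom liver, and the other controls 2.66 and 2.94 CPM. Jchain, which joins IgM and IgA multimers, read 2.10, 2.01 and 1.44 CPM in EE against 9.75, 2.92 and 2.20 CPM in resmetirom. The list's summed level was 10.4 to 17.5 CPM in EE and 54.4 to 161.5 CPM in resmetirom. In control 1 it was 67.0 CPM, above resmetirom 1, and in the other controls 12.8 and 12.2 CPM. The list's median of −1.96 lay between −2.01 and −1.67 with each resmetirom liver left out, and immunoglobulin segments may share reads. The part of B cell content in the Ighm result was not tested.

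MHC class II and dendritic cell genes had 0 of 11 called, 11 of 11 negative and 8 separated lower in EE (9.09% of all tested genes), with a median of −1.24 (−1.52 to −0.74 with each resmetirom liver left out). H2-Eb1 read 17.5, 20.9 and 18.8 CPM in EE and 73.6, 55.1 and 26.8 CPM in resmetirom, and H2-Ab1 22.7, 25.8 and 18.5 CPM against 81.2, 50.3 and 31.4 CPM (adjusted p = 0.124 and 0.189 by edgeR). T and NK cell genes had 0 of 8 called and 7 of 8 negative, with a median of −0.84 (−0.37 without resmetirom 1). Lck, a T cell kinase, read 0.565, 0.272 and 0.519 CPM in EE and 2.04, 0.674 and 0.718 CPM in resmetirom (−1.36 ± 0.74, adjusted p = 0.526 by edgeR). Themis, a T cell signalling protein, was the 1 member with a positive value, at 1.28, 0.490 and 2.25 CPM against 0.193, 0.150 and 0.0513 CPM (adjusted p = 0.131 by edgeR). Cholangiocyte (8 tested), endothelial (13), erythroid (5), hepatocyte (11) and periportal (13) lists had no calls. Etnppl, a lyase of ethanolamine phosphate on the periportal list, read 38.7, 25.0 and 38.0 CPM against 20.3, 4.42 and 6.25 CPM, separated without passing (adjusted p = 0.154 by edgeR).

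Nuclear genes of oxidative phosphorylation had 0 of 29 called and a median of −0.24, and the 13 mitochondrially encoded genes 0 called and a median of −0.40. Both medians turned positive without resmetirom 2, to 0.15 and 0.09. The unfolded protein and integrated stress response list had 0 of 22 called, and its median of 0.14 became −0.21 without resmetirom 3. Of the 36 genes fixed for description whatever their values, among them Dio1, Thrsp, Cyp7a1, Cd36, Col1a1 and Mki67, 34 were tested and 0 were called by edgeR.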

How the data were processed

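Poly(A) RNA was sequenced from 12 livers in 4 groups of 3, from stranded mRNA libraries with paired 150-base reads, per the labels' protocols. The submitters' processing notes name fastp and the genome build GRCm39. Which aligner, counter, annotation release and strand setting were used is not given in the sources used here. For each library, the authors deposited expected counts per Ensembl gene, not scaled to a common total, and these were rounded to whole numbers. A GRCm38 table, older than the authors' build, gave symbols to 22603 of 28036 identifiers. Library totals were 17297865 to 21793326 counts.

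EE and resmetirom were compared by the quasi-likelihood test of edgeR 4.0.16, run under R 4.3.3 with robust dispersions, filterByExpr and trimmed-mean-of-M-values factors. All 12 livers shared 1 fit with 8 residual degrees of freedom, a biological coefficient of variation of 0.334 and Benjamini-Hochberg adjustment over 13988 genes. Adjusted p-values are edgeR's where no tool stands beside them. A single-gene permutation of 3 against 3 livers cannot go below p = 0.1 and was not used. The SE is the fold change divided by the square root of F. A fold against 0 counts is a bound, with 3 counts assumed over that group.

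The comparison, the 39 gene lists (25 functional and 14 of cell type markers) and the naming rule were chosen with earlier results of these data known. Of the 683 listed symbols 672 were matched and 631 tested. The rule named up to 15 called genes from either end of the fold changes (no overlap between the arms, a mean of at least 1 CPM, no unnamed models or pseudogenes), the 4 members per list whose p was lowest, and 36 genes fixed by name. Lists were described by counts and medians and not tested, and some members are not reported here. Promoter sequences are RefSeq's, of GRCm38.p6, matched by symbol. Alternatives were other scalings, filters and sets of livers, a replicate block, DESeq2 1.42.0, limma 3.58.1 voom, and each library left out. The fits were tested on simulated data, where the main fit missed most changes with a log2 fold change of 1 and called most of the larger ones. A list without calls can therefore still hold changes of that smaller size.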

Additional observations from a re-analysis of the deposited data

How the results depend on the processing

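With 3 livers per arm and 8 residual degrees of freedom, the number of calls depended on the setting more than their direction did. Of 27 alternatives, relative log expression scaling (41 calls), upper quartile scaling (44), a filter at a mean of 1 CPM (41), only the 9 high-fat diet livers (47) and removal of Mup and mitochondrially encoded genes (43) gave counts within 1.5 times the 43 genes called with all livers. A minimum log2 fold change of 1 removed none of the 43, which had all passed it already. Library totals alone gave 12 calls (3 higher and 9 lower in EE), DESeq2 410 (171 and 239), limma voom with quality weights 249 (116 and 133), no filter 176 (75 and 101), and only the 6 compared livers 3 (1 and 2). Limma voom (30, with 21 higher and 9 lower in EE) and the fit without resmetirom 1 (37, with 15 and 22) were also within 1.5 times the 43. Without control 1 and resmetirom 2 there were 417 (193 and 224). Without single libraries the calls ranged from 7 to 138, with 3 to 75 higher and 3 to 75 lower in EE. The causes were not tested.

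The labels do not say whether the replicate numbers pair the samples, and the main fit has no block. Same-numbered EE and resmetirom livers had correlations of 0.0362, 0.0833 and 0.142 of their deviations from the group means. Livers of different numbers had −0.108 to −0.0121, so every liver correlated best with its own number. With 3 livers per group these correlations cannot decide whether the numbers mark a shared cage, day or batch. With a replicate block in all 12 livers 19 genes passed (10 higher and 9 lower in EE), and with the block in only the 6 compared livers 10 (3 and 7).

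All 43 called genes kept their sign wherever tested, and Ntrk2, H2-Q1 and ENSMUSG00000121505 passed in every alternative. Of the 110 genes of this text that were followed over the alternatives, 6 had a reversed value, none of them a called gene. The log2 fold change of Thrsp was −0.001336 with relative log expression, −0.00163 with DESeq2, −0.05633 with quality weights, −0.007463 with the 1 CPM filter, −0.0003675 in only the 6 livers, −0.007355 without Mup and mitochondrial genes, and from −0.5325 (without resmetirom 1) to 0.5844 (without resmetirom 2) over single libraries left out. The log2 fold change of Cd36 was −0.2947 with library totals, −0.3822 without control 1 and resmetirom 2, and −0.3462 (without resmetirom 2) to 1.204 (without resmetirom 1) over single libraries. The log2 fold change of Cidec was 0.3703 with limma voom, 1.042 with quality weights, 0.5959 with the replicate block in only the 6 livers, and −0.7033 (without EE 3) to 1.878 (without resmetirom 1) over single libraries. The log2 fold change of Klf9 was 0.02594 with quality weights. The log2 fold change of Gpnmb ran from −5.563 (without resmetirom 2) to 0.5216 (without resmetirom 1) over single libraries. The log2 fold change of Fabp4 was 0.3302 with quality weights and ran from −0.9075 (without resmetirom 3) to 0.1587 (without resmetirom 1) over single libraries. None of the reversed values passed the threshold.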
